A study of Mus musculus with 9 samples.

Results

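The enzymes of glycolysis, pyruvate dehydrogenase and the citrate cycle were described in sorted mouse bone marrow cells of the dendritic cell (DC) lineage. The list held 41 genes: hexokinases to lactate dehydrogenases, the Pfkfb enzymes that set fructose 2,6-bisphosphate, the pyruvate dehydrogenase complex with 2 of its kinases, and citrate cycle enzymes. Members were the listed genes with a probe set that named 1 gene symbol, and the probe set with the highest mean signal stood for a gene with several. This gave 38 of the 41 listed genes, among 19938 genes tested. Gpi1, Gapdh and Eno1 had no such probe set and were not analysed here; 25 probe sets named Gapdh together with other symbols. All cells came from bone marrow of heterozygous Zbtb46-GFP reporter mice, in which green fluorescent protein reports on Zbtb46, a transcription factor gene of the classical DC lineage. Sorting by flow cytometry gave 3 populations, with 3 arrays for each. They were common DC progenitors (CDPs) negative for Zbtb46, written Zbtb46- CDPs, those positive for it, written Zbtb46+ CDPs, and pre-CD8 DCs, precursors of the CD8+ type of classical DC. Every population carried the same reporter allele and was collected into medium with Flt3L, and the labels name no other treatment. The labels gave no sort gates, ages or sexes, and left unsaid how many mice or sorts stand behind the replicates, so p-values cover the spread between these arrays alone, which may be technical.

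Glycolysis splits glucose into pyruvate in the cytosol and yields ATP without oxygen. Pyruvate is either reduced to lactate by lactate dehydrogenase or enters the mitochondrion, where the pyruvate dehydrogenase complex turns it into acetyl-CoA for the citrate cycle, whose dehydrogenases supply electrons to the respiratory chain. Several steps have alternative enzymes encoded by separate genes (isozymes), which differ in regulation and in the tissues that use them. Myc and hypoxia-inducible factor are known activators of many glycolysis genes, and proliferating blood progenitors generally use both glycolysis and respiration.

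RNA was labelled with a kit for picogram to nanogram amounts and measured on whole-transcript arrays, and values are given as log2 of the deposited RMA signal. Array medians lay between 110.2 and 118.0 on the linear scale, and 37 of the 38 members had a mean above the median of the table (6.82), Pfkfb4 being below it. Zbtb46 itself averaged 6.53, 7.24 and 7.51, higher in Zbtb46+ than in Zbtb46- CDPs (limma adjusted p = 0.0261) and overlapping between Zbtb46+ CDPs and pre-CD8 DCs (adjusted p = 0.463). Of 12 DC progenitor and classical DC markers, 6 were called higher between the CDPs (Zbtb46, Id2, Batf3, Xcr1, Tlr3 and Ciita), 3 lower (Flt3, Csf1r and Cd34), and Kit, Irf8 and Clec9a did not pass. At the later step 8 were higher, Clec9a, Kit and Flt3 among them, 2 were lower (Csf1r and Cd34), and Zbtb46 and Irf8 did not pass. Replicate 1 of both CDP groups stood apart: Xist was at most 5.59 in these 2 arrays and at least 11.85 in the others, and the neutrophil granule gene Ngp was at 10.48 and 12.36 there and between 5.39 and 8.54 elsewhere. The summed linear signal of 11 of 11 neutrophil markers, which include the progenitor granule genes Mpo and Elane, ran from 16076.8 to 20808.3 in Zbtb46- CDPs, from 3927.1 to 27566.7 in Zbtb46+ CDPs (the maximum in replicate 1) and from 839.8 to 1862.1 in pre-CD8 DCs. The sum of 7 of 9 monocyte and macrophage markers spanned 5726.7 to 6712.6, 3666.4 to 5211.6 and 4774.0 to 5560.0 in the same order. The sum of 6 of 6 plasmacytoid DC markers spanned 4087.9 to 5159.5, 3297.4 to 3568.0 and 3527.1 to 3981.7, and that of 7 of 8 B cell markers 1013.3 to 1092.8, 815.9 to 950.7 and 781.1 to 804.0, with Cd79a, Pax5 and Ebf1 below the table median in every array. The monocyte, plasmacytoid DC and B cell sums thus lay higher in every Zbtb46- CDP array than in any Zbtb46+ CDP array, as did most members. The sum of 5 of 8 erythroid markers went the other way (427.6 to 457.3 against 461.8 to 542.0). That of 6 of 6 T and NK cell markers overlapped (295.5 to 321.3 against 312.9 to 346.8). A sum follows its brightest genes: of the monocyte markers 3 were called lower and 1 (Ccr2) higher. Of the plasmacytoid DC and B cell markers, 1 each was called lower (Bst2 and Cd79b). The part of these sums in the members' differences was not tested.

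Most members were highest in Zbtb46- CDPs, and more were lowest in Zbtb46+ CDPs than in pre-CD8 DCs. Zbtb46- CDPs had the highest mean of the 3 populations for 30 of 38 members (78.9%), against 32.8% of all genes and 46.9% of the genes brighter than the table median. Zbtb46+ CDPs had the lowest mean for 23 members (60.5%, against 26.5% of all genes and 40.8% of bright genes), and the highest mean for 0 members, against 42.7% of all genes and 22.0% of bright genes. Pre-CD8 DCs were highest for 8 members (21.1%, against 24.5% of all genes and 31.1% of bright genes) and lowest for 13 (34.2%, against 31.3% and 29.0%), shares near the background. The moderated F test of limma over the 3 populations passed an adjusted p of 0.05 for 25 of 38 members, where 19.1% of all genes passed. That count was 14 without replicate 1 or replicate 3 of the Zbtb46- CDPs, where 14.9% and 13.2% of all genes passed, and 15 without replicate 1 or replicate 3 of the pre-CD8 DCs, where 14.3% did in each fit. In bulk RNA, fewer cells of a type and less RNA per cell cannot be told apart.

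**Figure D1:**
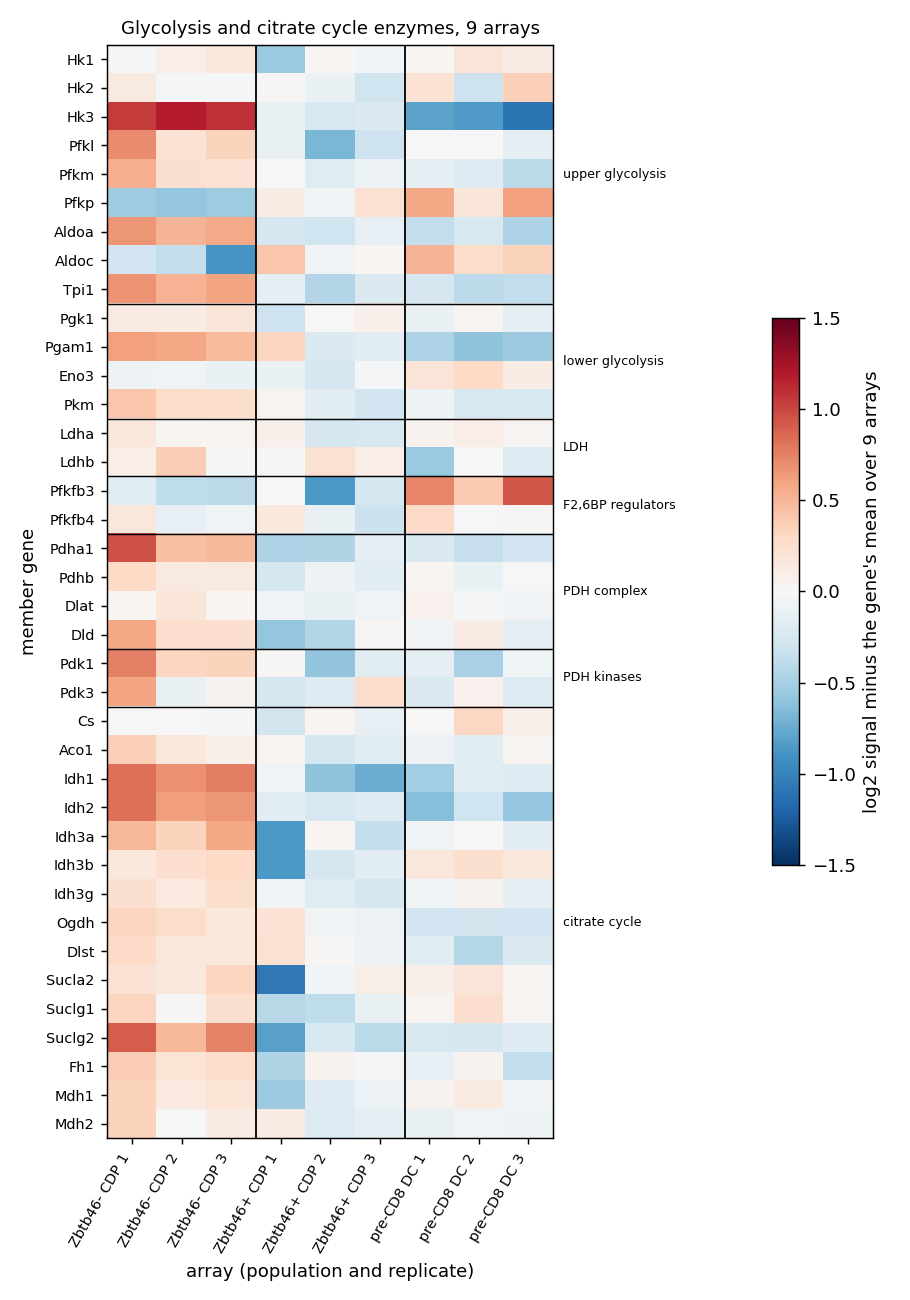
Signal of the 38 measured members in each of the 9 arrays, as log2 signal minus the mean of the gene over all arrays (red higher, blue lower), with genes in pathway order (LDH, lactate dehydrogenase; F2,6BP, fructose 2,6-bisphosphate; PDH, pyruvate dehydrogenase). The Zbtb46- CDP columns are red for most genes, Pfkp and Aldoc run the other way, and Sucla2, Idh3a and Idh3b are bluest in replicate 1 of the Zbtb46+ CDPs.

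Between the CDP populations, 19 of 38 members were lower and 2 were higher in Zbtb46+ CDPs by limma at an adjusted p under 0.05, and 17 did not pass. Of all genes, 10.6% were called lower and 3.85% higher, and of bright genes 18.0% and 5.92%. The difference was below 0 for 36 of 38 members, with a median of -0.40, while the median over all genes was 0.04. All 3 arrays of Zbtb46+ CDPs lay below all 3 of Zbtb46- CDPs for 24 members and above them for 2, against 17.4% and 11.8% of all genes. The fallen genes were 5 of 9 in upper glycolysis, 2 of 4 in lower glycolysis and 3 of 4 in the pyruvate dehydrogenase complex. Of its 2 kinases 1 fell, and 8 of 15 on the citrate cycle list, which includes cytosolic enzymes. Neither lactate dehydrogenase and neither Pfkfb gene passed. The count of lower members was 8 without replicate 1 of the Zbtb46- CDPs (6.57% of all genes in that fit), 11 without their replicate 3 (6.73%), 23 without replicate 1 of the Zbtb46+ CDPs (16.4%), and 21 without both arrays low in Xist (13.8%). The lower calls that passed in each of 9 fits without 1 array were 8: Hk3, Pfkl, Aldoa, Tpi1, Pdha1, Idh1, Idh2 and Suclg2. Of the higher calls, that of Pfkp passed in all 9 such fits and that of Aldoc in the 1 without replicate 1 of the Zbtb46- CDPs. A further quantile normalization left 14 members lower and 2 higher, with 7.88% and 6.1% of all genes.

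From Zbtb46+ CDPs to pre-CD8 DCs 2 members (5.26%) rose (Eno3 and Pfkfb3), 1 (2.63%) fell (Hk3) and 35 did not pass. Of all genes 4.76% were called higher and 1.86% lower, and of bright genes 8.3% and 3.1%, so the members' shares were near the background. The median difference was 0.12, against -0.03 over all genes. Arrays did not overlap for 5 members upwards and 5 downwards, where 12.6% and 10.3% of all genes did the same. These counts moved with single arrays: neither higher call passed without replicate 1 or without replicate 3 of the pre-CD8 DCs, 1 member was called higher without any single array of the Zbtb46- CDPs or without replicate 2 of the Zbtb46+ CDPs, and 4 without replicate 1 or 3 of the Zbtb46+ CDPs. As lower, 2 passed without replicate 1 of the Zbtb46+ CDPs or replicate 2 of the pre-CD8 DCs. In the 9 fits without 1 array, the share of all genes ran from 2.3% to 9.05% higher and from 0.983% to 4.35% lower. The fit with the replicate number as a block also called 2 lower, Pgam1 being added at an adjusted p of 0.0295, and a further quantile normalization called 5 lower and 1 higher, with 3.28% and 3.76% of all genes.

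Over the whole span, from Zbtb46- CDPs to pre-CD8 DCs, 13 members (34.2%) were lower and 4 (10.5%) higher, and 21 did not pass. The shares of all genes were 9.23% and 6.43%, and of bright genes 15.1% and 10.8%. The 4 higher members were Pfkp, Aldoc, Pfkfb3 and Eno3, and 11 of the 13 lower calls passed in all 9 fits without 1 array. The exceptions were Pdk1 and Dlst. Arrays lay apart downwards for 23 members and upwards for 4, against 19.2% and 14.4% of all genes, and the median difference was -0.28 against 0.01 over all genes. Without replicate 3 of the pre-CD8 DCs, 2 members were called higher, as were 5.01% of all genes.

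**Figure D2:**
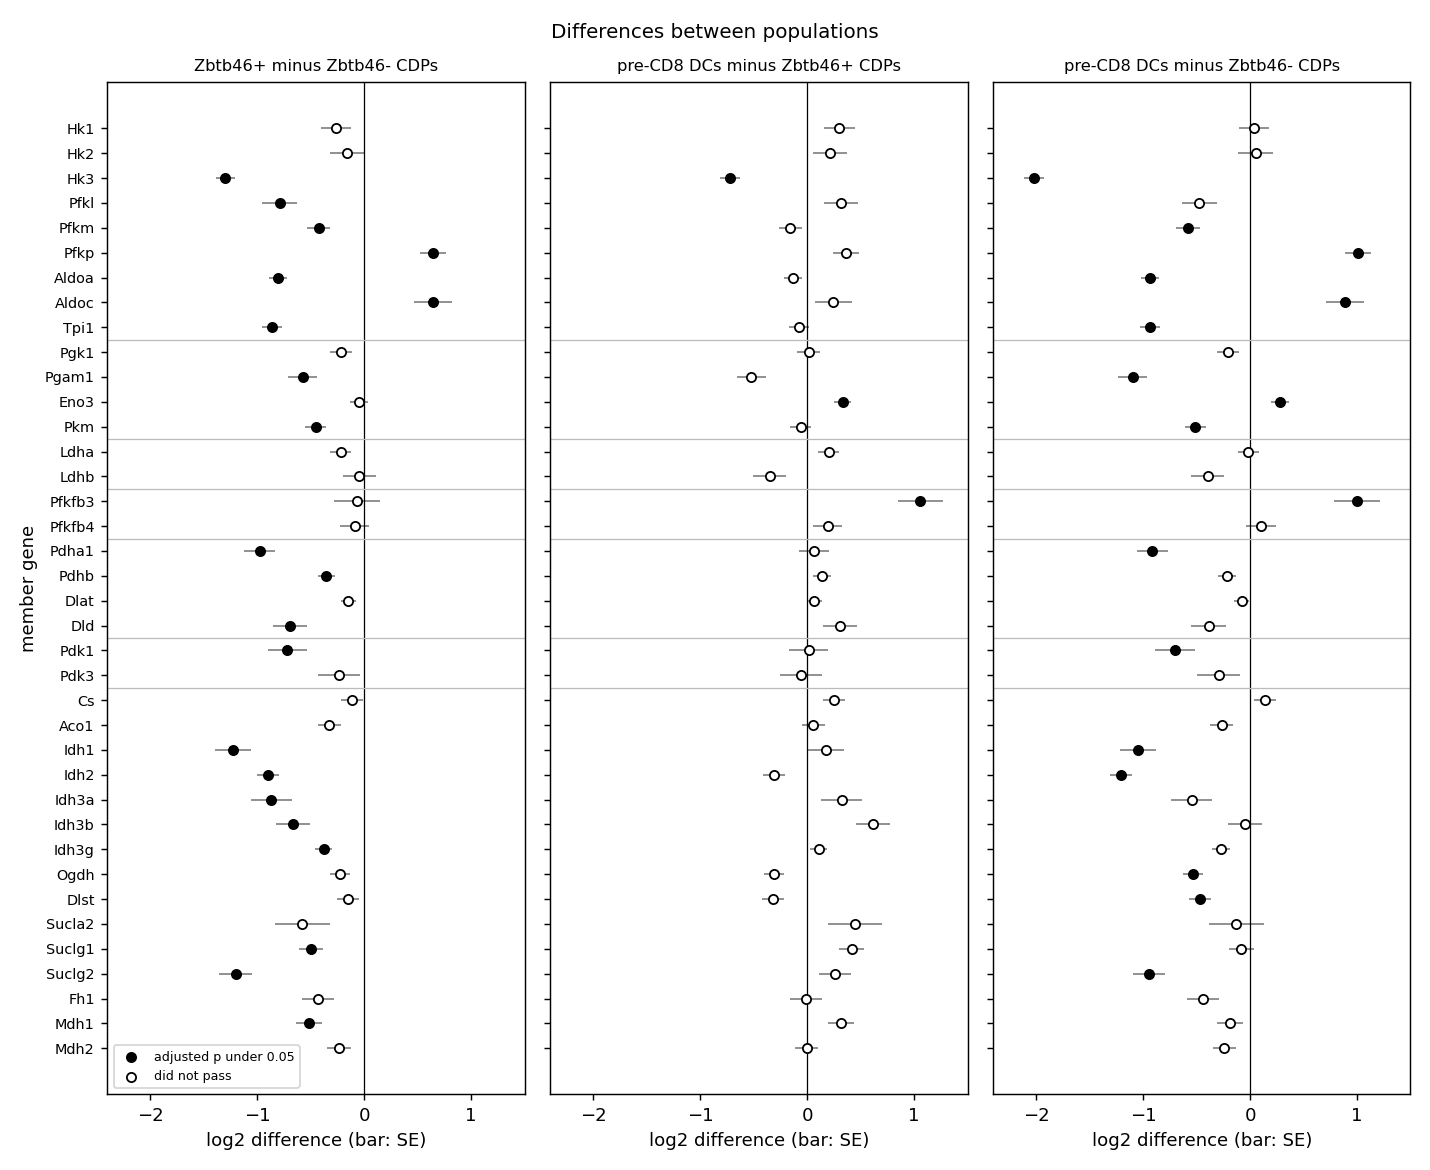
Log2 difference of each member in the 3 pairwise comparisons (point, estimate; bar, SE; filled, limma adjusted p under 0.05), with genes in pathway order. The left panel holds 19 filled points below 0 and 2 above it, the middle panel 1 below and 2 above, and the right panel 13 below and 4 above.

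The promoters of members were searched because glycolysis genes are textbook targets of factors that read the core ACGTG (hypoxia-inducible factor) or CACGTG (Myc and related proteins). Windows of 250 bases before each RefSeq transcript start (mouse build GRCm38.p6) were searched on both strands; ACGTG also lies inside CACGTG. A window was found for 40 of the 41 listed genes, 59 windows in all, and none for Idh3a. ACGTG was in 22 of 59 member windows (37.3%) and in 16.6% of all 32851 windows, and it was in 10 of 26 windows (38.5%) of the members that fell in Zbtb46+ CDPs and in 12 of 28 (42.9%) of the other measured members. Counted by gene the order turned, with 8 of 18 fallen genes and 6 of 19 others, since genes with several starts count more than once: Ogdh alone held 6 of the 12 windows. CACGTG was in 6 member windows (10.2%, from Ldha, Ogdh, Pfkfb3 and Pfkm) and in 6.02% of all windows. It was in 1 of 26 windows (3.85%) of the fallen members, that of Pfkm. Of the other measured members it was in 5 of 28 windows (17.9%), 3 of them from Ogdh. Counted by gene, these were 1 of 18 fallen genes and 3 of 19 others. A match is a description of these letters and not a binding site. The 4 genes printed here were picked, and each holds a match. For Aldoa and Pfkfb3, which have 3 and 2 windows, the window with the most matches was taken. Tpi1, Idh1, Idh2, Pdha1, Pfkl and Suclg2 were among the fallen genes without a match. The 4 windows printed 5′ to 3′ on the gene's strand, with matches in capitals (CACGT is ACGTG on the other strand), belong to Hk3, whose signal fell at each step (chr13:55021386-55021635, minus strand), to Pgam1 (chr19:41911621-41911870, plus strand) and Aldoa (chr7:126799179-126799428, minus strand), which fell, and to Pfkfb3, which rose in pre-CD8 DCs (chr2:11502091-11502340, minus strand).
Hk3: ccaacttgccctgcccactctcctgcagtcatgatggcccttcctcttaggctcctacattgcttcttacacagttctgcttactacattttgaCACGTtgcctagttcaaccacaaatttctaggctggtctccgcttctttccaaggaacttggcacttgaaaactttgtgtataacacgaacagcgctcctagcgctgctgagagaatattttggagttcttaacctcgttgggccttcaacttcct
Pgam1: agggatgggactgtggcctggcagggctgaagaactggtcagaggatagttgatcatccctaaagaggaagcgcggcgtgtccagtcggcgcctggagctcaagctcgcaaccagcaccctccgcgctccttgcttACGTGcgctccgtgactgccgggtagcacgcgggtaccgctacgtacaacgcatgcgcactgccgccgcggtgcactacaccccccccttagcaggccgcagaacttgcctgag
Aldoa: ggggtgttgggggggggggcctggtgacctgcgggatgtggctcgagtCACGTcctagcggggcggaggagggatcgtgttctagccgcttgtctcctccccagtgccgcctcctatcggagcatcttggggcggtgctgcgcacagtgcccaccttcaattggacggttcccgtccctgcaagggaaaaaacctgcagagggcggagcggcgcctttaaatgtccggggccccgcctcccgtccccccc
Pfkfb3: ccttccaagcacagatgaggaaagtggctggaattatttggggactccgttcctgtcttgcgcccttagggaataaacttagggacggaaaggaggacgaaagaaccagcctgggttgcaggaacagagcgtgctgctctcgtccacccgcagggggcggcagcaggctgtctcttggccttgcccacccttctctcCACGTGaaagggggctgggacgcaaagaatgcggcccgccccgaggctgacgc

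Hexokinases phosphorylate glucose and so hold it in the cell, and Hk3 is the isozyme known from myeloid cells. Hk3 measured 9.45, 9.57 and 9.49 in replicates 1 to 3 of the Zbtb46- CDPs, 8.29, 8.15 and 8.17 in the Zbtb46+ CDPs, and 7.59, 7.55 and 7.30 in the pre-CD8 DCs. The 3 populations did not overlap and stepped down in that order. Hk3 fell by 1.30 (SE 0.0911, limma adjusted p = 5.3e-05, 2.46-fold) between the CDP populations, by a further 0.72 (adjusted p = 0.00201, 1.65-fold) to pre-CD8 DCs, and by 2.02 (adjusted p = 1.15e-06, 4.06-fold) over the whole span. Without replicate 1 of the Zbtb46+ CDPs, the array with the highest neutrophil marker sum, the first fall was 1.34 (adjusted p = 7.05e-05). The neutrophil marker sums given above were also lower in every pre-CD8 DC array than in any CDP array. Of the 11 markers, though, 3 were called lower against Zbtb46+ CDPs (Mmp8, Elane and Mpo), 0 higher, and 8 did not pass. Among these 8, Ngp was at 8.30 and 8.54 in replicates 1 and 3 of the pre-CD8 DCs. In replicates 2 and 3 of the Zbtb46+ CDPs it was at 5.39 and 5.73. The part of these markers in the Hk3 signal was not tested. Hk2, the inducible hexokinase, differed by -0.16, 0.21 and 0.05 in the 3 comparisons and passed in none.

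Hk1, the widely expressed hexokinase, passed in no comparison by either of its probe sets. Its brightest probe set measured 12.59, 12.71 and 12.77 in Zbtb46- CDPs, 12.06, 12.64 and 12.57 in Zbtb46+ CDPs and 12.64, 12.81 and 12.73 in pre-CD8 DCs. These ranges overlapped. That probe set listed a single transcript accession, which was also listed by all 16 probe sets naming Hk1 together with a ribosomal protein gene, and over the 9 arrays it tracked their median (r = 0.98, a description). The other Hk1 probe set, annotated by RefSeq, read 8.35, 8.01 and 8.11, then 8.26, 7.65 and 7.45, then 7.72, 7.63 and 7.74. Its differences were -0.37 (SE 0.187, adjusted p = 0.223) between the CDPs, -0.09 (adjusted p = 0.837) at the later step, where the brightest set gave 0.30, and -0.46 (adjusted p = 0.16) over the whole span. Neither probe set passed alone, but their mean was lower by 0.32 in Zbtb46+ CDPs (limma adjusted p = 0.0154). The 2 sets did not track each other over the 9 arrays (r = -0.41), so this mean joins unlike readings. The fit on the RefSeq-annotated set was added after the values had been seen.

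Phosphofructokinase commits the sugar to glycolysis, and its 3 subunit genes moved in different directions. Pfkp, the platelet type, measured 10.05, 10.00 and 10.04 in Zbtb46- CDPs, 10.69, 10.53 and 10.81 in Zbtb46+ CDPs and 11.16, 10.76 and 11.19 in pre-CD8 DCs. All arrays of the later populations lay above all Zbtb46- CDP arrays, while Zbtb46+ CDPs and pre-CD8 DCs overlapped. Pfkp rose by 0.64 (SE 0.124, adjusted p = 0.00831, 1.56-fold) between the CDPs and by 1.01 (adjusted p = 0.00048, 2.01-fold) over the whole span. Pfkl, the liver type, measured 8.20, 7.72 and 7.83, then 7.39, 6.81 and 7.18, then 7.49, 7.49 and 7.35. The Zbtb46- CDPs were highest and the other populations overlapped. Pfkl fell by 0.79 between the CDPs (SE 0.162, adjusted p = 0.0115, 1.73-fold), and its difference over the whole span was -0.47 (adjusted p = 0.0902, or 0.0319 with the replicate block and 0.0413 without replicate 1 of the Zbtb46+ CDPs). Pfkm, the muscle type, fell by 0.42 between the CDPs (adjusted p = 0.0313) and by 0.58 over the whole span (adjusted p = 0.00579), the first of these calls being lost in 4 of 9 fits without 1 array, with adjusted p up to 0.102.

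Aldolases cleave fructose 1,6-bisphosphate, and Aldoa and Aldoc went opposite ways. Aldoa, the main aldolase of most tissues, measured 11.01, 10.86 and 10.91 in Zbtb46- CDPs, 10.10, 10.04 and 10.22 in Zbtb46+ CDPs and 9.98, 10.11 and 9.88 in pre-CD8 DCs. Zbtb46- CDPs stood above both others, which overlapped. Aldoa fell by 0.81 between the CDPs (SE 0.0845, adjusted p = 0.000425, 1.75-fold) and by 0.94 over the whole span (adjusted p = 7.29e-05, 1.91-fold). Aldoc, best known from brain, measured 7.05, 6.98 and 6.45, then 7.75, 7.28 and 7.37, then 7.85, 7.62 and 7.68. Its Zbtb46- CDP arrays were the lowest and close to the median of the table. Aldoc rose by 0.64 between the CDPs (SE 0.174, adjusted p = 0.0393, 1.56-fold), a call lost in 8 of 9 fits without 1 array (adjusted p up to 0.106), and by 0.89 over the whole span (adjusted p = 0.0075, 1.85-fold), which passed in all 9.

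Tpi1, triosephosphate isomerase, measured 11.73, 11.59 and 11.66 in Zbtb46- CDPs, 10.93, 10.62 and 10.85 in Zbtb46+ CDPs and 10.81, 10.67 and 10.69 in pre-CD8 DCs. The first population stood apart and the others overlapped. Tpi1 fell by 0.86 (SE 0.0939, adjusted p = 0.00053, 1.82-fold) between the CDPs and by 0.94 (adjusted p = 0.000143) over the whole span, and its difference from Zbtb46+ CDPs to pre-CD8 DCs was -0.07 (adjusted p = 0.714).

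In the lower, ATP-yielding part of glycolysis the phosphoglycerate mutase gene Pgam1 changed most. It measured 12.27, 12.23 and 12.12 in Zbtb46- CDPs, 11.97, 11.44 and 11.48 in Zbtb46+ CDPs and 11.18, 11.04 and 11.10 in pre-CD8 DCs. No populations overlapped, and replicate 1 of the Zbtb46+ CDPs lay nearest to the Zbtb46- CDPs. Pgam1 fell by 1.10 over the whole span (adjusted p = 0.000472, 2.14-fold). Between the CDPs it fell by 0.58 (SE 0.134, adjusted p = 0.0206, 1.49-fold), and this call failed in 5 of 9 fits without 1 array (adjusted p up to 0.0748) while the difference was -0.75 (adjusted p = 0.000362) without replicate 1 of the Zbtb46+ CDPs. The later difference was -0.52 (adjusted p = 0.0532, and 0.02 without that array). Pkm, the pyruvate kinase of most cells, fell by 0.45 between the CDPs (adjusted p = 0.0158) and by 0.51 over the whole span (adjusted p = 0.00701). Pgk1, phosphoglycerate kinase, differed by -0.22 and -0.21 in these comparisons without passing. Eno3, the muscle enolase, was 0.33 higher in pre-CD8 DCs than in Zbtb46+ CDPs (adjusted p = 0.0462) and 0.28 higher than in Zbtb46- CDPs (adjusted p = 0.0478). These 2 calls were lost in 7 and 6 of 9 fits without 1 array and with the replicate block (adjusted p = 0.079 and 0.0797).

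Neither lactate dehydrogenase gene passed in any comparison by its brightest probe set. Ldha, the form of glycolytic tissues, averaged 11.14, 10.92 and 11.13 in the 3 populations, and its differences were -0.22 (adjusted p = 0.177), 0.20 (adjusted p = 0.308) and -0.01 (adjusted p = 0.967). Replicate 1 of the Zbtb46+ CDPs was higher (11.14) than the other 2 (10.81 and 10.82), and without it the first 2 differences were -0.33 (adjusted p = 0.0101) and 0.31 (adjusted p = 0.0213). Ldhb, the form of oxidative tissues, differed by -0.04, -0.35 and -0.40, the last having an adjusted p of 0.142, or 0.0352 with the replicate block. Its second, dimmer probe set differed by -0.70 over the whole span, and the mean of both sets by -0.55 (adjusted p = 0.00635), which passed.

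Pfkfb3 makes fructose 2,6-bisphosphate, the strongest known activator of phosphofructokinase, and was the member with the largest rise at the later step. It measured 7.99, 7.78 and 7.76 in Zbtb46- CDPs, 8.15, 7.29 and 7.89 in Zbtb46+ CDPs and 8.88, 8.54 and 9.09 in pre-CD8 DCs. The CDP populations overlapped and every pre-CD8 DC array was above them. Pfkfb3 rose by 1.06 from Zbtb46+ CDPs (SE 0.214, adjusted p = 0.0199, 2.08-fold), a call lost without replicate 1 or replicate 3 of the pre-CD8 DCs (adjusted p = 0.0772 and 0.0895). It was 0.996 higher than in Zbtb46- CDPs (adjusted p = 0.0119), lost without replicate 3 of the pre-CD8 DCs (adjusted p = 0.056). The sister gene Pfkfb4 measured 6.86, 6.58 and 6.63, then 6.85, 6.58 and 6.37, then 6.98, 6.69 and 6.71. Its populations overlapped near the table median and it passed nowhere.

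**Figure D3:**
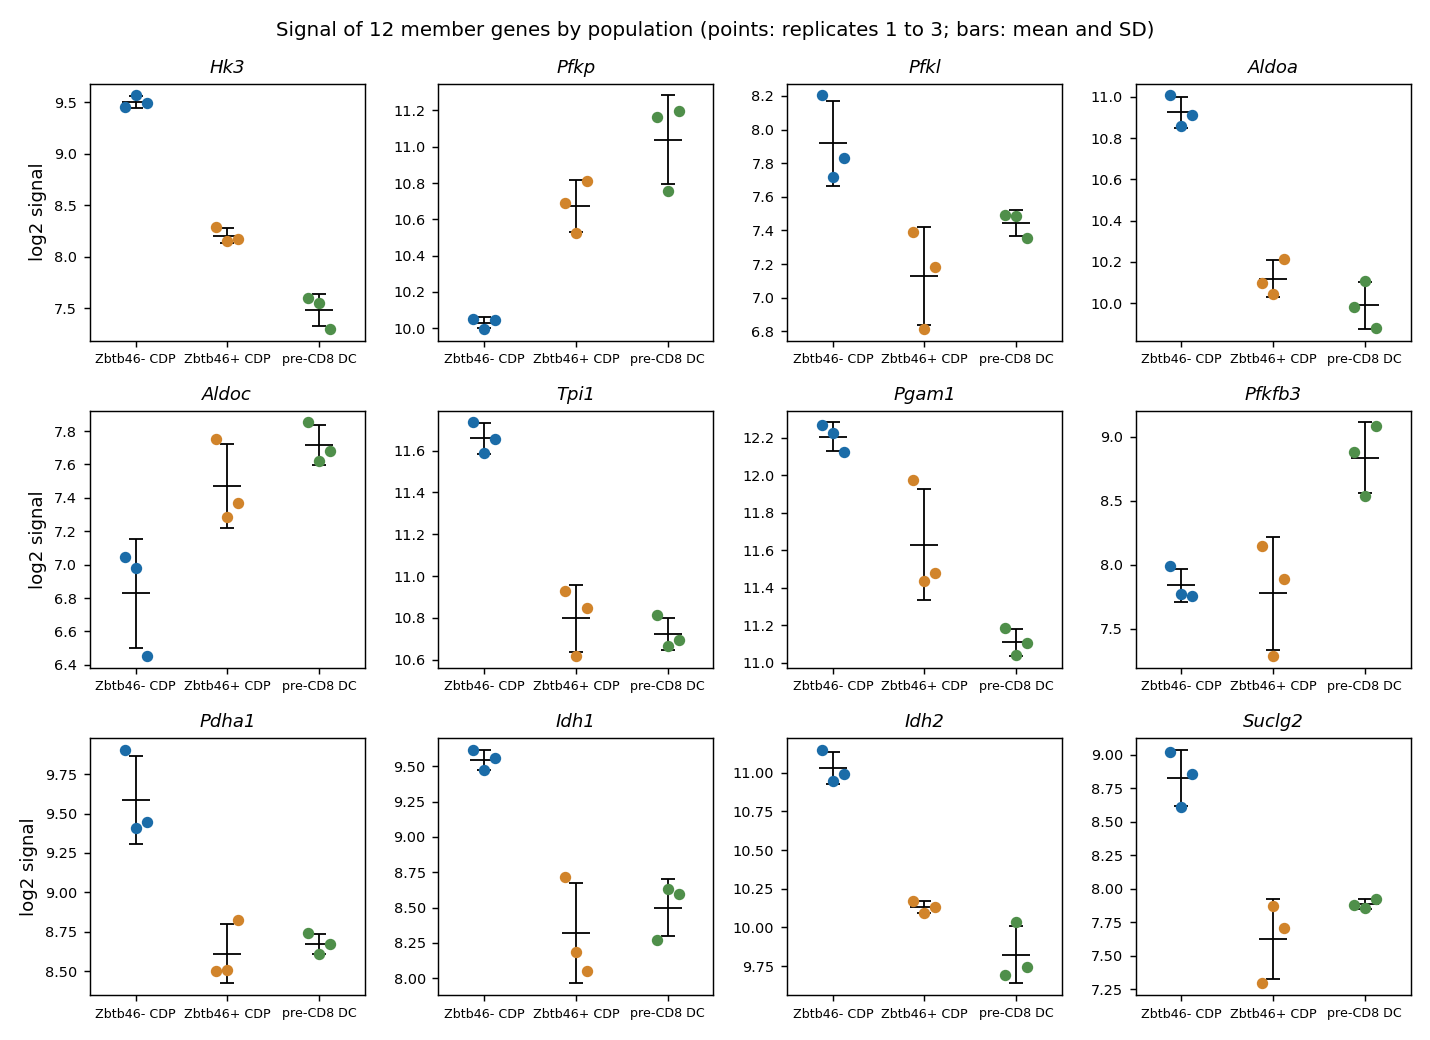
Log2 signal of 12 members by population; points are replicates 1 to 3 from left to right and bars the mean and SD. Hk3 steps down through all 3 populations, Pfkp and Aldoc rise, Pfkfb3 is higher in pre-CD8 DCs alone, and the other members are highest in Zbtb46- CDPs.

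The pyruvate dehydrogenase complex, which admits pyruvate to the citrate cycle, was lower in Zbtb46+ CDPs in 3 of 4 genes. Pdha1, the catalytic alpha subunit of pyruvate dehydrogenase, measured 9.91, 9.41 and 9.45 in Zbtb46- CDPs, 8.50, 8.51 and 8.83 in Zbtb46+ CDPs and 8.74, 8.61 and 8.67 in pre-CD8 DCs. Zbtb46- CDPs stood above both other populations, which overlapped. Pdha1 fell by 0.98 between the CDPs (SE 0.143, adjusted p = 0.00229, 1.97-fold) and by 0.91 over the whole span (adjusted p = 0.00216, 1.88-fold). The beta subunit gene Pdhb fell by 0.35 (adjusted p = 0.0195) and the shared dihydrolipoamide dehydrogenase gene Dld by 0.69 (adjusted p = 0.0199) between the CDPs. These calls were lost in 1 and 2 of 9 fits without 1 array, and Dld also without the arrays low in Xist (adjusted p = 0.0651). Dlat, the acetyltransferase core, differed by -0.15 (adjusted p = 0.204). Of the kinases that inactivate the complex, Pdk1 fell by 0.72 between the CDPs (adjusted p = 0.0318) and by 0.70 over the whole span (adjusted p = 0.0308), calls that were lost in 5 and 6 of 9 fits without 1 array, and Pdk3 differed by -0.24 (adjusted p = 0.451).

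All 15 members on the citrate cycle list had a difference below 0 between the CDPs, with a median of -0.50, and 8 passed. The list includes the cytosolic enzymes Idh1, Mdh1 and Aco1, and Idh1 and Mdh1 were among the 8. Isocitrate dehydrogenases turn isocitrate into 2-oxoglutarate, and all 5 of their genes passed. Idh1, the cytosolic NADP enzyme, measured 9.61, 9.47 and 9.56 in Zbtb46- CDPs, 8.72, 8.19 and 8.05 in Zbtb46+ CDPs and 8.27, 8.63 and 8.60 in pre-CD8 DCs. It fell by 1.23 between the CDPs (SE 0.169, adjusted p = 0.00169, 2.34-fold) and by 1.05 over the whole span (adjusted p = 0.00254, 2.07-fold). Idh2, its mitochondrial counterpart, measured 11.15, 10.95 and 10.99, then 10.17, 10.09 and 10.13, then 9.69, 10.03 and 9.74. Both genes were highest in every Zbtb46- CDP array, and for Idh2 the pre-CD8 DCs also lay below all Zbtb46+ CDPs. Idh2 fell by 0.90 between the CDPs (SE 0.1, adjusted p = 0.000569, 1.87-fold) and by 1.21 over the whole span (adjusted p = 4.28e-05, 2.31-fold), while the later step of -0.31 did not pass (adjusted p = 0.119).

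The NAD-dependent isocitrate dehydrogenase, a mitochondrial enzyme of 3 kinds of subunit, fell in all its genes between the CDPs. Idh3a, the catalytic subunit, measured 10.08, 9.91 and 10.16, then 8.72, 9.61 and 9.22, then 9.52, 9.59 and 9.40. Zbtb46- CDPs were highest, and replicate 1 of the Zbtb46+ CDPs was the lowest array. Idh3a fell by 0.87 between the CDPs (SE 0.19, adjusted p = 0.0157, 1.83-fold), which failed without replicate 1 or 3 of the Zbtb46- CDPs (adjusted p = 0.0566 and 0.0635). Without replicate 1 of the Zbtb46+ CDPs the fall was 0.64 (adjusted p = 0.00769). The whole-span difference of -0.55 did not pass (adjusted p = 0.0963), but did so without that array (adjusted p = 0.00826). Idh3b fell by 0.67 (adjusted p = 0.0223) and Idh3g by 0.38 (adjusted p = 0.0152), calls lost in 3 and 2 of 9 fits without 1 array. Idh3b averaged 9.91, 9.24 and 9.86 in the 3 populations. Its later difference of 0.62 had an adjusted p of 0.0526, of 0.0345 with the replicate block and of 0.00893 without replicate 1 of the Zbtb46+ CDPs, where it was 0.40.

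Succinyl-CoA synthetase pairs the alpha subunit Suclg1 with either the GTP-forming Suclg2 or the ATP-forming Sucla2. Suclg2 measured 9.02, 8.61 and 8.86 in Zbtb46- CDPs, 7.30, 7.87 and 7.71 in Zbtb46+ CDPs and 7.88, 7.85 and 7.92 in pre-CD8 DCs. Zbtb46- CDPs stood above both others. Suclg2 fell by 1.20 between the CDPs (SE 0.151, adjusted p = 0.00109, 2.30-fold) and by 0.94 over the whole span (adjusted p = 0.00248, 1.92-fold). Sucla2 measured 9.69, 9.63 and 9.79, then 8.40, 9.43 and 9.55, then 9.55, 9.66 and 9.51. Replicate 1 of the Zbtb46+ CDPs was far below every other array, and the difference of -0.58 between the CDPs did not pass (SE 0.254, adjusted p = 0.17). Without that array it was -0.21 (adjusted p = 0.088). Suclg1 fell by 0.50 between the CDPs (adjusted p = 0.0206, lost in 3 of 9 fits without 1 array and, at 0.0745, without the arrays low in Xist). It averaged 10.43, 9.93 and 10.35, and its later difference of 0.42 did not pass (adjusted p = 0.0707).

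Of the remaining citrate cycle genes, 1 passed between the CDPs. The cytosolic malate dehydrogenase Mdh1 fell by 0.51 between the CDPs (adjusted p = 0.022, lost in 2 of 9 fits without 1 array), and the mitochondrial Mdh2 differed by -0.23 (adjusted p = 0.197, or 0.0379 without replicate 1 of the Zbtb46+ CDPs). Ogdh and Dlst, which encode subunits of 2-oxoglutarate dehydrogenase, passed only over the whole span, where they fell by 0.53 (adjusted p = 0.00363) and 0.47 (adjusted p = 0.0142, lost in 2 of 9 fits without 1 array). Ogdh also passed between the CDPs without replicate 1 of the Zbtb46+ CDPs (-0.32, adjusted p = 0.0129). Cs, citrate synthase at the entry of the cycle, differed by -0.12, 0.25 and 0.14. Aco1, the cytosolic aconitase, and Fh1, fumarase, differed by -0.32 and -0.43 between the CDPs, with adjusted p of 0.0773 and 0.0926. Aco1 passed without replicate 1 of the Zbtb46+ CDPs (adjusted p = 0.02), and without that array Fh1 passed over the whole span (-0.44, adjusted p = 0.0189).

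Because probes differ in affinity, levels of isozymes were not set against each other, but the ratio of 2 members within an array can be followed across populations. Of 12 listed pairs 11 were measured, and no test was made across members. The ratio of Pfkp to Pfkl, relative to its mean in Zbtb46- CDPs, was -0.27, 0.17 and 0.10 in those arrays, 1.19, 1.60 and 1.52 in Zbtb46+ CDPs and 1.56, 1.16 and 1.73 in pre-CD8 DCs. Zbtb46- CDPs lay apart and the other populations overlapped. The ratio of Aldoc to Aldoa was 0.14, 0.22 and -0.36, then 1.76, 1.34 and 1.25, then 1.97, 1.61 and 1.90, the same order. The change of Pfkp thus exceeded that of Pfkl by 1.48 over the whole span (pooled SD of the ratio 0.265), and that of Aldoc exceeded that of Aldoa by 1.82 (pooled SD 0.259). The change of Hk3 minus that of Hk1 was -2.06 over the whole span, and -1.56 with the RefSeq-annotated Hk1 probe set.

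Other pairs separated at a later or an earlier step. Suclg2 relative to Sucla2 was lower in every array of both later populations than in Zbtb46- CDPs, with differences of changes of -0.63 and -0.81. Pfkfb4 relative to Pfkfb3 was lower in every pre-CD8 DC array than in any CDP array, at -0.87 against Zbtb46+ CDPs. Idh2 relative to Idh1 and Pfkm relative to Pfkl were lower in pre-CD8 DCs than in every Zbtb46+ CDP array (-0.49 and -0.47). Ratios of Mdh2 to Mdh1, and of Hk2 to Hk1 by its brightest probe set, overlapped in all 3 comparisons. By the RefSeq-annotated Hk1 probe set, the ratio of Hk2 to Hk1 was higher in every pre-CD8 DC array than in any Zbtb46- CDP array.

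**Figure D4:**
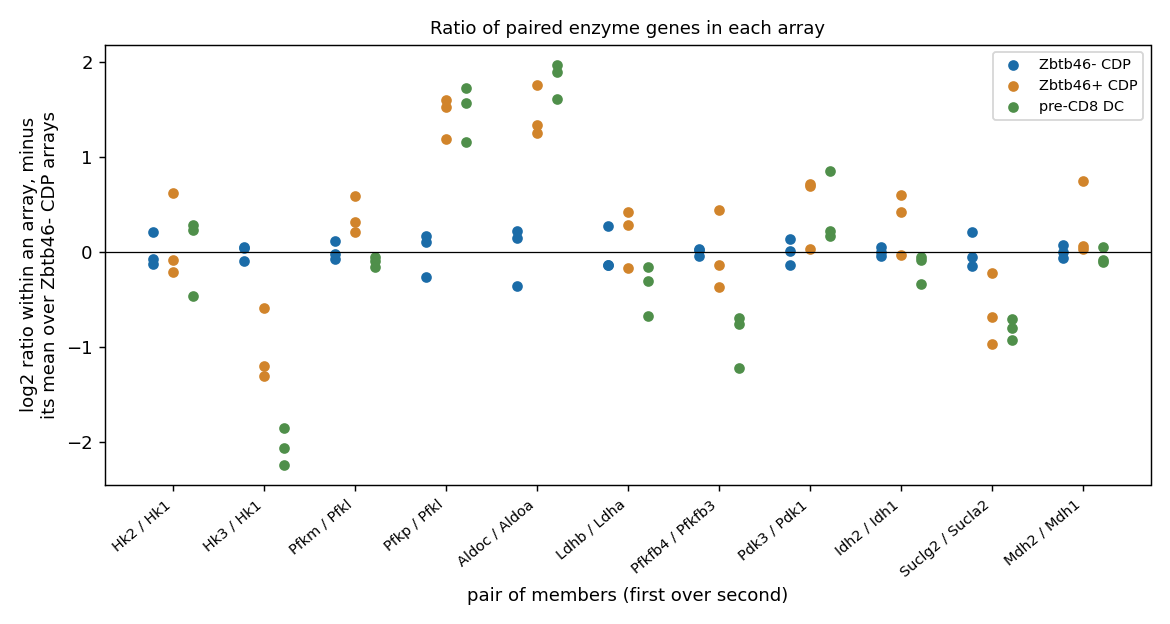
Log2 ratio of 2 members within an array, minus the mean of that ratio over the Zbtb46- CDP arrays, for the 11 measured pairs; each point is 1 array. Pfkp over Pfkl and Aldoc over Aldoa sit above 1 in every Zbtb46+ CDP and pre-CD8 DC array, and Hk3 over Hk1 falls stepwise.

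Of 75 other genes of these pathways, 67 were measured. Between the CDPs 16 (23.9%) were lower and 4 (5.97%) higher. Of all genes 10.6% and 3.85% were so called, and of bright genes 18.0% and 5.92%. From Zbtb46+ CDPs to pre-CD8 DCs 1 (1.49%) was lower and 5 (7.46%) higher. These shares were near the background, 1.86% and 4.76% of all genes and 3.1% and 8.3% of bright genes. Over the whole span 11 (16.4%) were lower and 6 (8.96%) higher, against 9.23% and 6.43% of all genes and 15.1% and 10.8% of bright genes. The largest falls between the CDPs were in Egln3, a prolyl hydroxylase that marks hypoxia-inducible factor for decay (-1.84, adjusted p = 0.000416), in Myc (-1.60, adjusted p = 0.000388), in the lactate and pyruvate carrier Slc16a1 (-1.19, adjusted p = 0.00611) and in Pfkfb2 (-0.75, adjusted p = 0.0109). The rises were in Mycl (0.99, adjusted p = 0.0138), a Myc relative used by DCs, in Vhl (0.55, adjusted p = 0.00584), in the lactate exporter Slc16a3 (0.38, adjusted p = 0.00803) and in Taldo1 (0.38, adjusted p = 0.0238), transaldolase of the pentose phosphate pathway. Myc measured 11.53, 11.46 and 11.54 in Zbtb46- CDPs, 10.36, 9.72 and 9.65 in Zbtb46+ CDPs and 10.76, 10.62 and 10.68 in pre-CD8 DCs. It was highest in every Zbtb46- CDP array and lowest in every Zbtb46+ CDP array, and rose by 0.78 at the later step (adjusted p = 0.0243).

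At that later step Txnip, which restrains glucose uptake, rose by 0.51 (adjusted p = 0.0261), the succinate dehydrogenase subunit gene Sdhb by 0.47 (adjusted p = 0.0188) and Taldo1 by 0.46 (adjusted p = 0.0185), and Pgd, of the oxidative pentose phosphate pathway, fell by 0.44 (adjusted p = 0.0234). Sdhb had fallen by 0.58 between the CDPs (adjusted p = 0.00356). Over the whole span Egln3 fell by 2.31 (adjusted p = 4.38e-05), Slc16a1 by 1.63 (adjusted p = 0.000737), Pgd by 1.01 (adjusted p = 7.9e-05) and Myc by 0.82 (adjusted p = 0.00841). Mycl rose by 1.68 (adjusted p = 0.000559), Taldo1 by 0.83 (adjusted p = 0.000234), Txnip by 0.75 (adjusted p = 0.00153) and Vhl by 0.73 (adjusted p = 0.000875). Of these lists, the other citrate cycle genes held 3 lower of 7 between the CDPs, and the pentose phosphate genes 2 lower and 1 higher of 6. The carriers held 2 lower and 1 higher of 9, and the regulators 4 lower and 2 higher of 14. The other glycolysis isozymes held 2 lower of 10, the other pyruvate dehydrogenase genes 2 of 7, and gluconeogenesis and anaplerosis 1 of 14 (7.14%). In that comparison 10.6% of all genes were lower and 3.85% higher, and lists this short give unsteady shares.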

How the data were processed

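Array files had been summarized by RMA in Affymetrix Expression Console, per the submitters' processing notes; versions and settings are not given in the sources used here. The deposited values are RMA signal intensity values per probe set (linear, 7.45 to 20455.6), of which log2 was taken with no further scaling. The table held 28853 probe sets on 9 arrays, none duplicated; 21789 named 1 symbol, 1621 several and 5443 were not in the probe table. Of several probe sets per gene (999 genes) the brightest was kept, giving 19938 genes with no filter on dim ones.

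Group means were fitted to all 9 arrays with limma 3.58.1 (lmFit, eBayes; R 4.3.3), with Benjamini-Hochberg adjustment over all genes and calls at an adjusted p under 0.05; the fit was checked on simulated data. Members with a called difference of at least 0.8, and their isozyme partners, are given array by array; other pathway genes are named by the largest called differences, at most 4 per direction. Replicate numbers of the labels were checked: deviations from group means correlated by 0.51, 0.42 and 0.36 between same-numbered CDP arrays, each over the 0.1 taken to mean pairing, and between -0.03 and 0.17 with pre-CD8 DCs. Differently numbered CDP arrays also correlated, replicate 3 of the Zbtb46- CDPs by 0.38 with replicate 2 of the Zbtb46+ CDPs and replicate 2 by 0.15 with replicate 3. Every other such pair was below 0. By these values replicate 1 was set apart more clearly than replicates 2 and 3 were from each other. Deviations from a group mean sum to 0 for each gene, so these correlations depend on each other. The negative ones are thus no separate evidence. The main fit held no term for the replicate number, so its p-values leave this pairing out. The fit with the replicate number as a block is given as an alternative. Promoter windows and symbols are from RefSeq. The members and all lists were chosen with earlier results of these data known. The number of arrays limits the precision.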

Additional observations from a re-analysis of the deposited data

How the results depend on the processing

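No called difference of a member changed sign under the 20 alternatives. Of all member comparisons and settings, 2052 kept their side of the threshold, 109 lost a call, 67 gained one and 52 differences that were not called changed sign. In the main fit 47 of these 52 were at most 0.1 in size. The largest there was that of Hk1 at the later step, 0.30 by its brightest probe set and -0.09 by the RefSeq-annotated one. Some changed values were larger: Hk1 over the whole span went from 0.04 to -0.46 by the RefSeq-annotated set and to -0.21 by the mean of both sets. Pfkfb3 between the CDPs went from -0.06 to 0.18 without replicate 2 of the Zbtb46+ CDPs. Shares of all genes in the same fits are given in brackets. Between the CDPs, 2 members higher became 1 with median centring (3.18%), a fit of 2 groups (2.36%) or an adjusted p under 0.01 (1.86%). Without single arrays 1 to 2 were higher (2.27% to 10.0%). The 19 lower became 10 with a fit of 2 groups (6.96%) and 7 at 0.01 (5.19%). Without single arrays 8 to 23 were lower (6.57% to 16.4%). From Zbtb46+ CDPs to pre-CD8 DCs, 2 higher became 1 with quantile normalization (3.76%) or trend and robust moderation (4.05%). They became 0 with a fit of 2 groups (3.01%) or at 0.01 (1.88%). With array weights (10.1%) or without the arrays low in Xist (12.5%) 5 were higher, and 0 to 4 without single arrays (2.3% to 9.05%). There 1 lower became 2 with the 30% dimmest genes dropped (2.94%) or with the replicate block (2.24%), and 5 with quantile normalization (3.28%). With array weights (5.22%) or without the arrays low in Xist (7.87%) 3 were lower, and 1 to 2 without single arrays (0.983% to 4.35%). Over the whole span, 4 higher became 2 at 0.01 (4.21%) and 2 to 4 without single arrays (4.74% to 8.81%). The 13 lower became 24 with array weights (18.7%, against 9.23% in the main fit) and 11 to 17 without single arrays (6.33% to 12.8%). Where member counts rose with array weights or without the arrays low in Xist, the shares of all genes rose too. The F test called 10 at 0.01 (10.5%) and 14 to 27 without single arrays (13.2% to 31.5%), against 25 (19.1%). The replicate block left 2 higher and 19 lower between the CDPs (5.06% and 12.3%). It left 3 higher and 15 lower over the whole span (7.06% and 10.3%) and 22 by the F test (21.5%). The calls it changed are given beside the genes. The cause of these shifts was not tested, except that fits without arrays have fewer samples. The Xist and Hk1 alternatives were chosen with values in view.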

Other observations

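Single arrays ranked unevenly among the members. Replicate 1 of the Zbtb46- CDPs was the highest of its group for 28 of 38 members, where it was the highest for 47.4% of all genes. Replicate 2 of that group was the lowest for 22 members, against 33.6% of all genes. The 6 members with further one-symbol probe sets gave differences of the same sign between the CDPs in both readings, with Suclg2 at -1.20 and -1.32, Pgam1 at -0.58 and -0.67, Pkm at -0.45 and -0.61 and Ldhb at -0.04 and -0.37.

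Further genes of the pathways passed as well. Hif1a, the oxygen-regulated subunit of hypoxia-inducible factor, fell by 0.34 between the CDPs (limma adjusted p = 0.0432), and the sugar carrier gene Slc2a6 fell by 0.62 over the whole span (adjusted p = 0.0016). Pck2, the mitochondrial phosphoenolpyruvate carboxykinase, fell by 0.53 between the CDPs (adjusted p = 0.00269) and by 0.54 over the whole span (adjusted p = 0.00156). Gpd2, the mitochondrial glycerol 3-phosphate dehydrogenase, rose by 0.70 over the whole span (adjusted p = 0.00587). These genes were picked after their values were seen.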
